A study of Homo sapiens with 4 samples.

Results

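The genes described here repair broken or crosslinked DNA, and they were chosen by symbol from a list of 46 genes of homologous recombination, the Fanconi pathway, end joining and mismatch repair. Of these, 41 had an array feature annotated with that symbol alone, out of 17687 genes tested in all, and BRCA2, RBBP8, RAD54B, FANCA and FANCD2 were not analysed here. Each of the 41 had 1 feature. By class, 21 of 24 homologous recombination genes, 10 of 12 Fanconi genes, 8 of 8 end joining genes and 2 of 2 mismatch repair genes were measured. The 46 genes and the other lists used here were chosen with earlier results of these data known. Their shares and medians set beside those of all genes are therefore description only.

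Every sample was NB4-R4, an established line of acute promyelocytic leukaemia derived from NB4 and resistant to all-trans retinoic acid (ATRA), so the data stand for 1 line. Cells received either DMSO, the solvent, or MK-8776, an inhibitor of the checkpoint kinase CHK1, at 4 µM, and both groups were collected at 96 h. Each group had 2 arrays, labelled replicates 1 and 2, of total RNA from live cells. The values are RMA expression on the log2 scale, in which a change of 1 is a 2-fold change. Changes are MK-8776 minus DMSO, with the standard error (SE), the 95% confidence interval and the adjusted p from limma, which was adjusted over all 17687 genes and called at under 0.05. The interval of a single gene is not adjusted for the number of genes. With 2 arrays a group, an exact permutation test could not go below p = 0.333. The labels say only that replicates were biological, so the p-values rest on the spread between these arrays. For each gene limma mixes its own spread with a spread estimated over all genes, with 2 degrees of freedom against 6.30. The SE of a gene with tight pairs thus comes mostly from the other genes. Levels of different genes come from different probes, so no repair gene's level is set against another's, and a level is placed only roughly, against the quartiles of all values.

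A break in both DNA strands is mended in one of several ways. Homologous recombination trims the ends and copies the sister chromatid, so it works after DNA has been copied, whereas end joining ligates the ends directly at any stage of the cell cycle. The Fanconi pathway unhooks crosslinks between the strands and hands the resulting break to recombination, and mismatch repair corrects copying errors. Many recombination genes are transcribed mainly in cells that are copying DNA or preparing to divide, and CHK1 restrains replication and mitotic entry while damage persists.

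Few repair genes passed the test, and those that did fell. Of the 41 measured genes 2 fell (4.88%), BLM and MRE11, 0 rose and 39 did not pass, where 2.02% of all genes fell, 1.66% rose and 3.69% passed in either direction, so the share called was near the background. The limma fit gave 15 lower and 2 higher repair genes at an unadjusted p under 0.05, where the shares over all genes were 10.2% and 8.61%. The median change of the 41 genes was -0.27, against 0.005 over all genes, and leaving out single arrays moved it between -0.40 and -0.29. By class the medians were -0.51 for homologous recombination, -0.16 for Fanconi genes, -0.45 for the 2 mismatch repair genes and 0.12 for end joining, the last being 0.23 without MK-8776 replicate 1. Both MK-8776 arrays lay below both DMSO arrays in 21 of the 41 genes (51.2%), where 24.2% of all genes did, and above both in 7 (17.1%), where 24.0% of all genes did. These groupings were described by counts and medians, and a difference between the classes was not tested.

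**Figure D1:**
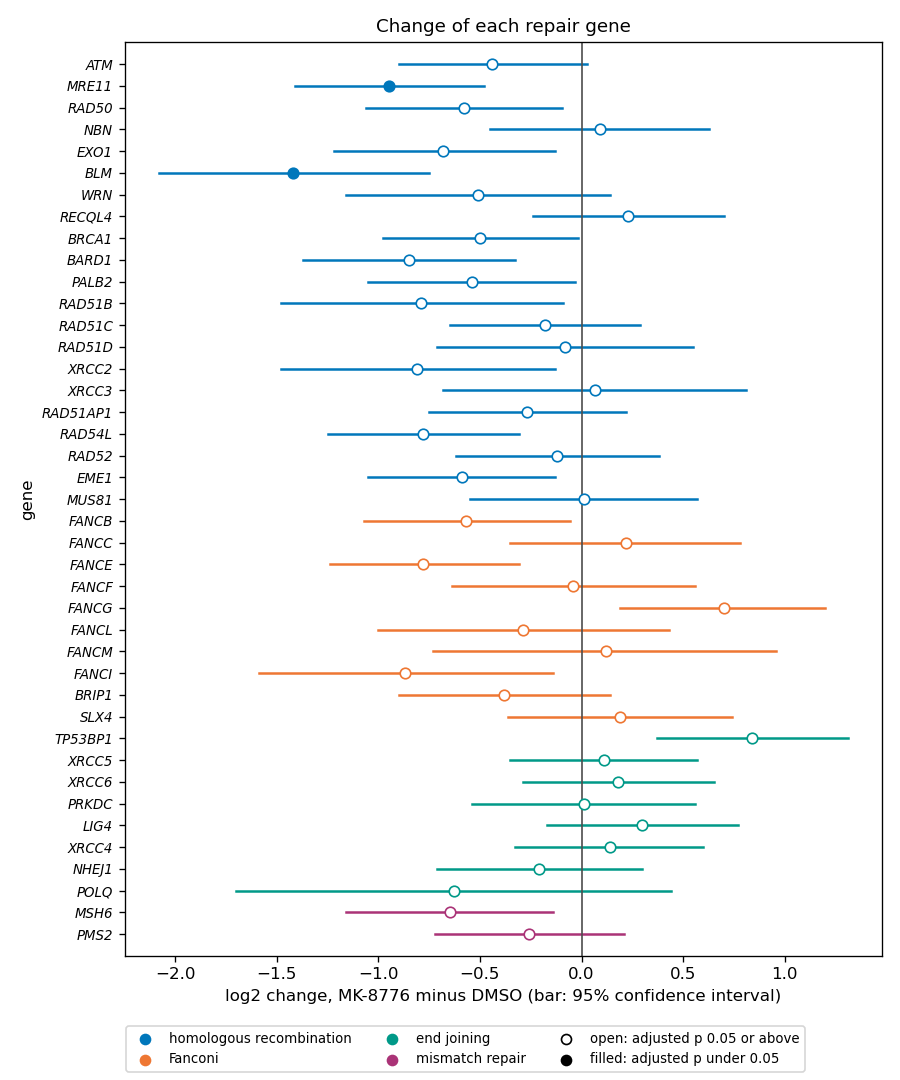
Log2 change (MK-8776 minus DMSO, horizontal axis) of the 41 repair genes, with bars for the unadjusted 95% confidence interval, colours for the class and filled points for genes past the threshold. BLM at -1.42 and MRE11 at -0.95 are the filled points, and most end joining genes lie near 0.

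The largest change among the repair genes was in BLM, a RecQ helicase that dissolves crossed recombination intermediates and is lost in Bloom syndrome (feature TC1500008328.hg.1, chromosome 15, 90717346 to 90816166, GRCh38). It measured 10.35 and 10.75 on the DMSO arrays and 8.76 and 9.51 on the MK-8776 arrays. Both treated arrays were below both controls, and replicate 1 was the lower of the treated pair by 0.75. The change was -1.42 (SE 0.29, interval -2.08 to -0.75, adjusted p = 0.0378, limma). Leaving out the lower treated array brought the change to -1.04, and leaving out the higher one brought it to -1.79. BLM lost the call when tested against a fold of 1.2 (0.0811, limma). The call was also lost without any 1 of the 4 arrays, where few genes in all passed. With all 4 arrays its adjusted p ran from 0.00866 to 0.0811 over the alternatives (limma).

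MRE11, the nuclease of the complex that first binds a broken end, also fell (feature TC1100012002.hg.1, chromosome 11, 94415570 to 94512412). Its values were 11.86 and 11.94 in DMSO and 10.97 and 10.94 in MK-8776, so the arrays of each group lay within 0.08 of each other and the groups were far apart. The change was -0.95 (SE 0.20, interval -1.41 to -0.48, adjusted p = 0.0433, limma). This call was lost without any 1 array, when all features were tested (0.0525) and against a fold of 1.2 (0.128), with an adjusted p from 0.00748 to 0.415 over 13 alternatives, while the change itself stayed between -0.99 and -0.91 when single arrays were left out.

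The promoters of these genes are printed beside those of XRCC4 and XRCC6, so that the pair that fell can be read against a pair of end joining genes with small changes (0.14 and 0.18). PRKDC (0.01) and XRCC5 (0.11) had smaller changes, but their promoters are not used here. Each run is the 250 bases before the gene's start in the RefSeq table (GRCh38.p14), read 5′ to 3′ on the gene's strand. The windows are chr15:90717096-90717345 (+), chr11:94493845-94494094 (-), chr5:83077297-83077546 (+) and chr22:41621045-41621294 (+). The window of MRE11 lies inside the span that the gene table gives the gene, at the start that the promoter table uses. Capitals mark CCAAT, the letters bound by NF-Y, on either strand (ATTGG on the other).
BLM: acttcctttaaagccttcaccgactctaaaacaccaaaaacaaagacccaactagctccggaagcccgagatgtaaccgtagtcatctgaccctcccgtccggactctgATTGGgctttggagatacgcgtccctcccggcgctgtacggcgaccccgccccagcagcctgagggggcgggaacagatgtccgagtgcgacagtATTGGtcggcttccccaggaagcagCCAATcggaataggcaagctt
MRE11: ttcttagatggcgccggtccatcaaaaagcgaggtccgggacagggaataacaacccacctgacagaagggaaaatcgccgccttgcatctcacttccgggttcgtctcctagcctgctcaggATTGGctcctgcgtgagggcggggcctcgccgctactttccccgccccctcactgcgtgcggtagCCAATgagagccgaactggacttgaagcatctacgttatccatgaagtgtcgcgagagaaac
XRCC4: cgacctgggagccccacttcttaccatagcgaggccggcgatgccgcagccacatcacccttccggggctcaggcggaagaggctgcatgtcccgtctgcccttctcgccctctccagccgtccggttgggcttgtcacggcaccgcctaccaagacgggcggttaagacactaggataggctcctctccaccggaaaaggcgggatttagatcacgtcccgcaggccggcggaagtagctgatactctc
XRCC6: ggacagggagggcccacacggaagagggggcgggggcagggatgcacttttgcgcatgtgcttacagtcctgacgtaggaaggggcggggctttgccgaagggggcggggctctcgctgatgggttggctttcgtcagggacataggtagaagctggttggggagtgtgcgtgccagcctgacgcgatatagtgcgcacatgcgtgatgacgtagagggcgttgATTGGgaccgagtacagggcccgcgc

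BLM had 3 CCAAT matches, the nearest beginning 21 bases before the start, MRE11 had 2, XRCC6 had 1 and XRCC4 had 0. Also searched on both strands were TTTGAA, the letters of the CHR element of many mitotic genes, and an E2F site given as TTTCCCGC, TTTCGCGC, TTTGCCGC or TTTGGCGC, and neither was found in these 4 windows. None of these motifs overlapped another there. A promoter was listed for 35 of the 41 repair genes. CCAAT stood in 15 of them (42.9%), against 32% of all 35116 promoters of the same length and 34.6% of those of tested genes. TTTGAA stood in 4, namely ATM, FANCC, BRIP1 and POLQ (11.4%, against 13.3% of all promoters and 10.7% of those of tested genes). An E2F site stood in 2, FANCC and PMS2 (5.71%, against 2.79% and 3.71%), and in 0 of 18 homologous recombination genes. Among the repair genes the median change was -0.27 for the genes with CCAAT and -0.39 for those without it. For comparison, TTTGAA stood in 15 of 25 genes of the G2 and mitosis list and an E2F site in 10 of 24 genes of the S phase list. CCAAT stood in 19 of 25 (76%) and 17 of 24 (70.8%) of these lists. A match describes letters only.

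Break sensing and end processing held 5 measured genes, with a median change of -0.58. MRE11, RAD50 and NBN form the complex that tethers broken ends and activates the kinase ATM. MRE11 passed the test and the other subunits did not, and a difference in change among them was not tested. RAD50, the subunit that bridges the ends, measured 13.64 and 13.51 in DMSO and 12.88 and 13.11 in MK-8776. Its treated arrays lay below the controls, with a change of -0.58 (SE 0.21, adjusted p = 0.185, limma), which passed with a variance trend (0.0439 to 0.0492) in a range of 0.0439 to 0.603 over 13 alternatives. NBN, the subunit that recruits ATM, was at 9.35 and 8.91 in DMSO and at 9.33 and 9.11 in MK-8776. Those groups overlapped, and the interval of the NBN change ran from -0.45 to 0.63. ATM itself, the kinase that signals breaks, read 12.55 and 12.59 against 12.16 and 12.11. Its groups did not overlap, and the change of -0.44 had an adjusted p of 0.292 (limma). EXO1, the exonuclease that lengthens the trimmed end and also serves mismatch repair, gave 8.63 and 8.92 in DMSO and 7.89 and 8.31 in MK-8776, a change of -0.68 (adjusted p = 0.169, limma).

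Among the RecQ helicases BLM alone passed. WRN, the helicase and nuclease lost in Werner syndrome, measured 8.14 and 7.97 in DMSO but 7.14 and 7.95 in MK-8776. Only MK-8776 replicate 1 was far from the controls, and the change of -0.51 became -0.11 without it. RECQL4, a helicase with a part in starting replication, lay at 4.16 and 4.04 in DMSO and 4.29 and 4.37 in MK-8776, near the lower quartile of all values (3.97), with a change of 0.23 (adjusted p = 0.62, limma).

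**Figure D2:**
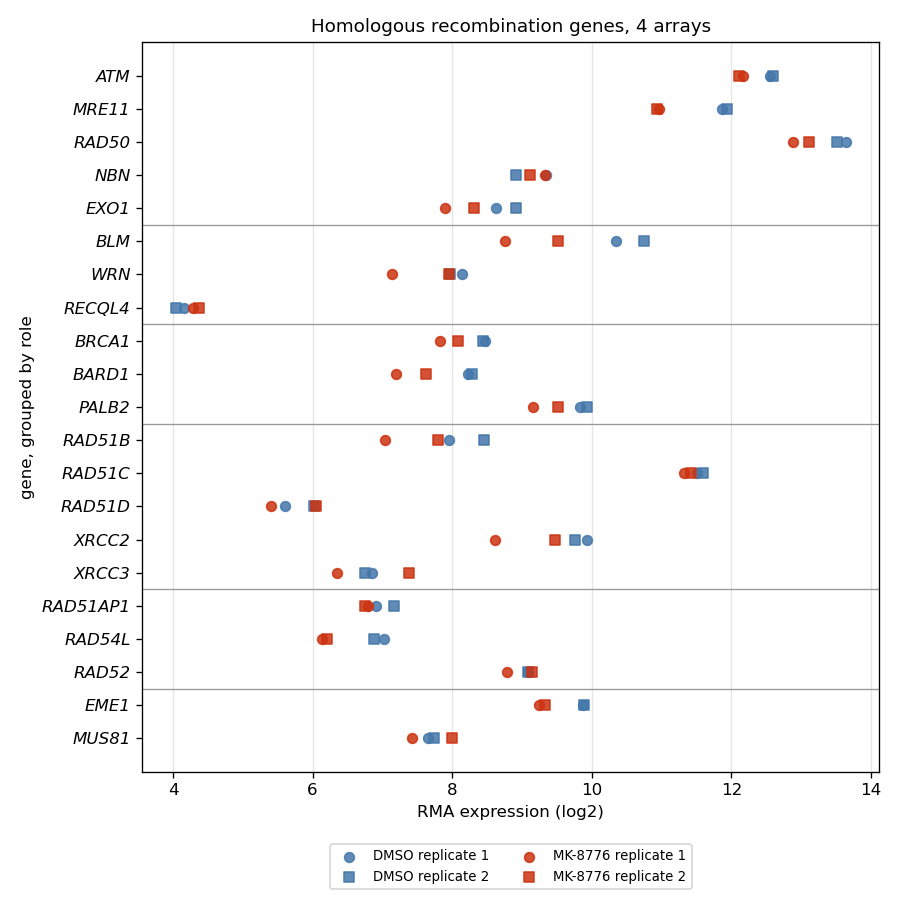
RMA expression (log2, horizontal axis) of 21 homologous recombination genes on 4 arrays, with blue for DMSO, red for MK-8776, circles for replicate 1 and squares for replicate 2, and lines between roles. BLM, MRE11, BARD1, RAD54L and EME1 show both red points left of both blue ones, and XRCC3 and MUS81 have blue points between the red ones.

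The BRCA complexes guide recombination toward the trimmed strand, and all 3 measured genes had both treated arrays below both controls, where 24.2% of all genes did, but 0 of the 3 passed. BARD1, the partner that stabilises BRCA1, measured 8.22 and 8.29 in DMSO and 7.19 and 7.62 in MK-8776. Its change was -0.85 (SE 0.23, interval -1.37 to -0.33, adjusted p = 0.0878, limma), and it did not pass in any of 13 alternatives (0.0519 to 0.483). BRCA1, a ubiquitin ligase subunit that favours end trimming, went from 8.47 and 8.44 to 7.83 and 8.08. PALB2, which binds BRCA1 at broken ends, was at 9.83 and 9.93 in DMSO and at 9.16 and 9.52 in MK-8776. The changes of BRCA1 and PALB2 were -0.50 and -0.54, with adjusted p of 0.249 and 0.236 (limma), and their intervals reached -0.98 and -1.05.

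XRCC2, which acts early in strand exchange, measured 9.93 and 9.76 in DMSO and 8.61 and 9.47 in MK-8776. The groups did not overlap, yet the treated arrays were 0.86 apart, and the change was -0.81 (SE 0.29, adjusted p = 0.187, limma) and -0.38 without MK-8776 replicate 1. RAD51B had 7.95 and 8.45 against 7.03 and 7.80 and a change of -0.79 (adjusted p = 0.209, limma), which was -0.40 without MK-8776 replicate 1. RAD51C, RAD51D and XRCC3 had changes of -0.18, -0.08 and 0.065. The XRCC3 arrays of MK-8776, at 6.35 and 7.38, lay on either side of the DMSO arrays at 6.85 and 6.75. The signs of RAD51D and XRCC3 turned when single arrays were left out.

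Later in strand exchange, RAD54L and RAD51AP1 had both treated arrays below both controls, where 24.2% of all genes did. RAD54L, a motor protein that drives strand invasion, measured 7.02 and 6.88 in DMSO and 6.13 and 6.21 in MK-8776. Each pair was tight and the pairs were apart, with a change of -0.78 (SE 0.20, interval -1.25 to -0.31, adjusted p = 0.0821, limma). Of 13 alternatives it passed only among features above the median level, those with either group's mean over the median of all values (0.0459, limma). In that setting 957 of 9452 genes passed. With all 4 arrays its adjusted p ran from 0.0459 to 0.271 over the alternatives (limma). RAD51AP1, which stimulates strand pairing, was at 6.91 and 7.16 against 6.79 and 6.75, a change of -0.27. RAD52, which anneals single strands, read 9.08 on both DMSO arrays and 8.78 and 9.14 in MK-8776, so its groups overlapped. EME1 and MUS81 are the 2 subunits of 1 nuclease that cuts joined chromatids apart. EME1 measured 9.87 and 9.89 in DMSO and 9.25 and 9.33 in MK-8776, with a change of -0.59 (adjusted p = 0.161, limma). MUS81 had a change of 0.01 (interval -0.55 to 0.57), with treated arrays on both sides of the controls. Whether EME1 and MUS81 differed in change was not tested.

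Fanconi genes did not share a direction. Of 10 measured genes 0 passed in the limma fit, and by value 6 were lower and 4 higher. At an unadjusted p under 0.05 in that fit 3 were lower and 1 was higher, where 10.2% and 8.61% of all genes were. Their median of -0.16 was -0.33 without MK-8776 replicate 1, -0.083 without DMSO replicate 1 and -0.31 without DMSO replicate 2. In the core complex, the ubiquitin ligase that tags the FANCI and FANCD2 pair, FANCE and FANCG stood at opposite ends. FANCE measured 6.87 and 6.92 in DMSO and 6.13 and 6.11 in MK-8776, with a difference of -0.78 (SE 0.20, interval -1.24 to -0.31, adjusted p = 0.0802, limma). Of 13 alternatives it passed only among features above the median level (0.0447, limma), where 957 of 9452 genes passed. With all 4 arrays its adjusted p ran from 0.0447 to 0.267 over the alternatives (limma). FANCG (chromosome 9, 35073839 to 35079942) measured 5.39 and 5.12 in DMSO and 5.82 and 6.08 in MK-8776. Its treated arrays were above the controls, with a change of 0.70 (SE 0.22, interval 0.19 to 1.2, adjusted p = 0.136, limma).

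FANCB, which joins the subcomplex that holds the ligase subunit FANCL, was at 7.02 and 6.64 in DMSO and at 6.25 and 6.28 in MK-8776, a change of -0.57 (adjusted p = 0.217, limma). FANCL, that catalytic subunit, gave 6.88 and 6.84 against 6.09 and 7.06, so 1 treated array was below and the other above the controls. FANCC, FANCF and FANCM, the last a DNA translocase that anchors the complex, had changes of 0.22, -0.04 and 0.12. Their groups overlapped, and FANCM was spread widely within DMSO (5.58 and 4.64) and within MK-8776 (5.65 and 4.80). FANCI, one of the tagged pair, measured 9.47 and 9.58 in DMSO and 8.17 and 9.15 in MK-8776. Both treated arrays were lower, and the change of -0.87 (SE 0.31, adjusted p = 0.185, limma) was -0.38 without MK-8776 replicate 1. BRIP1, a helicase that binds BRCA1, and SLX4, a scaffold for nucleases that unhook crosslinks, had changes of -0.38 and 0.19 (adjusted p = 0.428 and 0.743, limma).

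**Figure D3:**
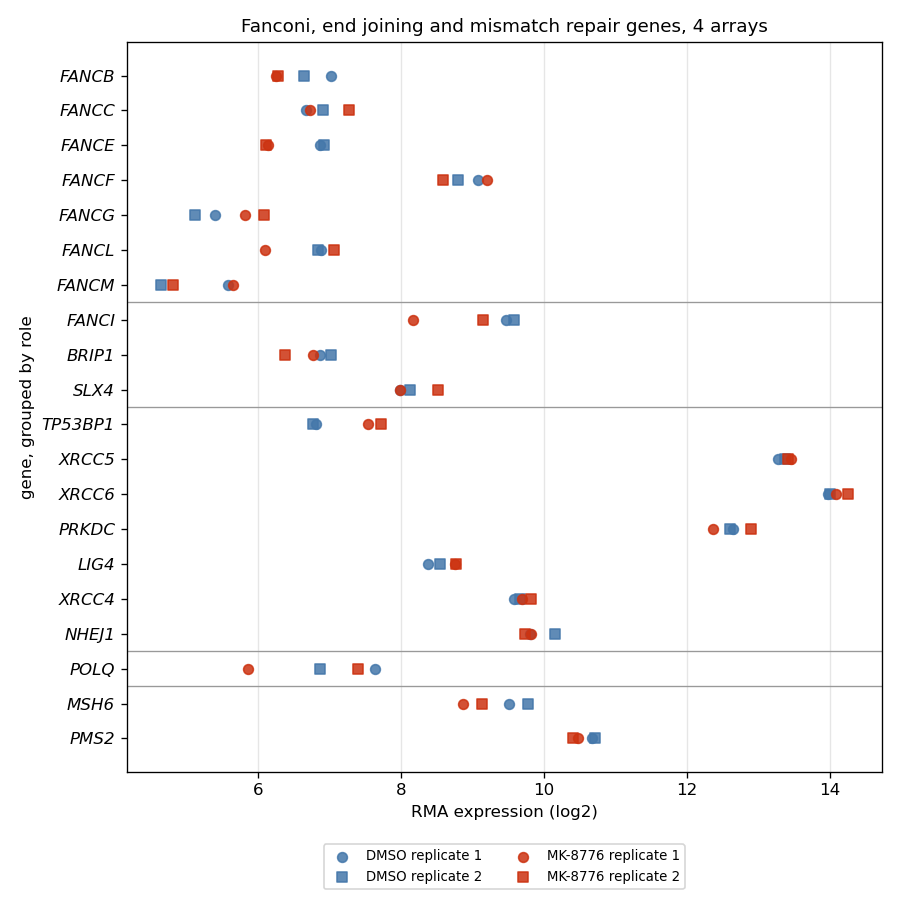
RMA expression (log2, horizontal axis) of 20 Fanconi, end joining and mismatch repair genes on 4 arrays, with blue for DMSO, red for MK-8776, circles for replicate 1 and squares for replicate 2, and lines between roles. TP53BP1 and FANCG have both red points right of both blue ones, FANCE has both left of them, and the red points of POLQ lie 1.54 apart.

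Classical end joining gave no call in either direction. Of 7 measured genes 0 passed in the limma fit, with a median change of 0.14. At an unadjusted p under 0.05 in that fit 1 was higher and 0 lower, where 8.61% and 10.2% of all genes were. Both treated arrays were above both controls in 5 of the 7, a share of 71.4% where 24.0% of all genes did so, and below both in 0. TP53BP1, which shields broken ends from trimming and so favours end joining (feature TC1500009221.hg.1, chromosome 15, 43403061 to 43510640), measured 6.81 and 6.77 in DMSO and 7.54 and 7.72 in MK-8776. The pairs were tight and well apart, and the change of 0.84 (SE 0.21, interval 0.37 to 1.31) missed the threshold (adjusted p = 0.068, limma). Of 13 alternatives TP53BP1 passed only among features above the median level (0.0383, limma), where 957 of 9452 genes passed.

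The Ku proteins, which ring the broken end, had small differences. XRCC5, the larger Ku subunit, was at 13.28 and 13.37 in DMSO and at 13.46 and 13.41 in MK-8776, and XRCC6, its partner, at 13.97 and 14.00 against 14.08 and 14.25. The changes were 0.11 and 0.18, and the intervals, -0.35 to 0.57 and -0.29 to 0.65, leave out a 2-fold change in either direction. PRKDC, the kinase that Ku recruits, had a change of 0.01 (interval -0.54 to 0.56) with treated arrays at 12.37 and 12.89 around the controls at 12.64 and 12.60. LIG4, the ligase of the pathway, and XRCC4, its scaffold, had changes of 0.30 and 0.14. NHEJ1, a filament protein that aligns the ends, was the 1 classical gene lower by value, at -0.21 (adjusted p = 0.688, limma). POLQ, the polymerase of the backup joining route that uses short matching stretches, was the most variable repair gene, at 7.63 and 6.87 in DMSO and 5.85 and 7.39 in MK-8776. Its change was -0.63 (SE 0.47, interval -1.70 to 0.44) and 0.14 without MK-8776 replicate 1.

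In mismatch repair, MSH6, which recognises the mispaired base together with its partner, measured 9.51 and 9.78 in DMSO and 8.86 and 9.13 in MK-8776. The groups did not overlap, and the change was -0.65 (SE 0.22, interval -1.16 to -0.14, adjusted p = 0.16, limma). PMS2, a nuclease subunit that nicks the new strand, was at 10.67 and 10.72 against 10.48 and 10.40, a change of -0.26 (adjusted p = 0.571, limma). PMS2 has near-identical pseudogene copies, so how much of its signal comes from the named gene is uncertain.

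The treated arrays differed from each other in the repair genes. MK-8776 replicate 1 was below replicate 2 in 30 of the 41 genes (73.2%), against 48.7% of all genes, and the median gap between these arrays was 0.23, against -0.01 over all genes. The gap was 0.36 in homologous recombination genes, 1.03 in XRCC3 and 1.54 in POLQ, but -0.03 in MRE11 and -0.02 in FANCE. Measured against the DMSO mean, the homologous recombination median was -0.63 on MK-8776 replicate 1 and -0.38 on replicate 2. The median gap of the G2 and mitosis list was 0.52 and that of the S phase list 0.43, in the same direction. Between the DMSO arrays the median gap (replicate 2 minus replicate 1) was 0.05 in the repair genes, -0.045 in the G2 and mitosis list and 0.30 in the S phase list, so the S phase list differed between replicates in both groups.

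**Figure D4:**
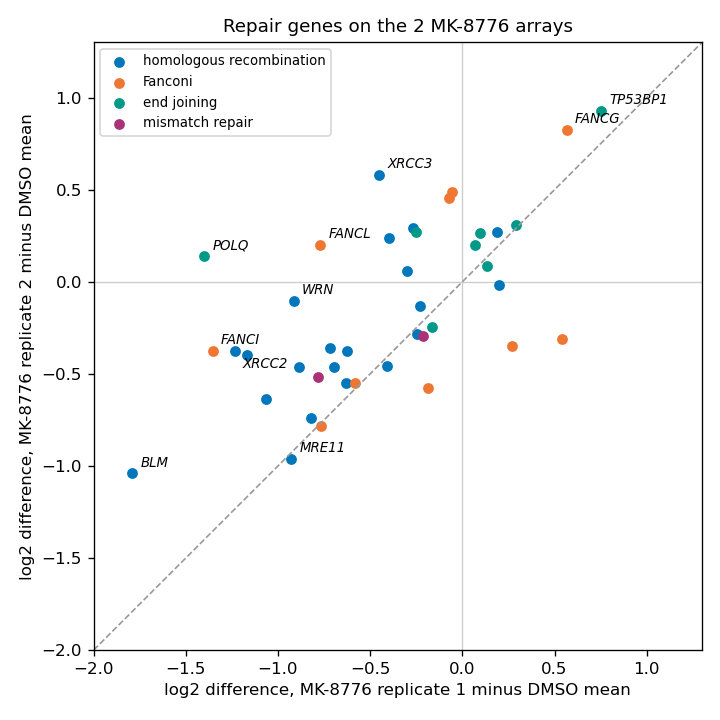
Log2 difference from the DMSO mean for each repair gene on MK-8776 replicate 1 (horizontal) and replicate 2 (vertical), coloured by class, with a dashed line where both are equal. Most points lie above the line, which is where replicate 1 is lower, with POLQ and XRCC3 far above it and MRE11 close to it.

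Genes of 2 cell cycle lists were read beside the repair genes. Of 30 genes of the G2 and mitosis list, 21 fell (70%), 0 rose and 9 did not pass, with a median of -1.43. Over all genes 2.02% fell and 1.66% rose. The cyclin gene CCNB2, the spindle gene DLGAP5, the kinase gene PLK1 and the kinetochore gene CENPF changed by -2.0, -2.0, -1.93 and -1.90. These calls were lost when any 1 array was left out, where few genes in all passed, but the median stayed between -1.67 and -1.11. The mean level of this list was 10.05 and 9.95 on the DMSO arrays and 8.48 and 8.89 on the MK-8776 arrays. Of 30 genes of the S phase list 0 passed in the limma fit, with a median of -0.33. At an unadjusted p under 0.05 in that fit 8 were lower and 1 higher, where 10.2% and 8.61% of all genes were. Among features above the median level 2 genes of this list passed, where 957 of 9452 genes did. With a variance trend 3 passed, where 1185 of 17687 genes did. UHRF1 and the cyclin gene CCNE2 had the largest changes, -1.11 and 1.27. The S phase median was -0.06 without MK-8776 replicate 1 and -0.63 without replicate 2, and the mean level of the list was 9.32 and 9.57 in DMSO and 8.88 and 9.35 in MK-8776. With all arrays the homologous recombination median of -0.51 thus lay between those of the 2 cell cycle lists. Without MK-8776 replicate 2 the homologous recombination and S phase medians were both -0.63, and without DMSO replicate 1 they were -0.49 and -0.47. They were -0.38 and -0.06 without MK-8776 replicate 1, and -0.52 and -0.19 without DMSO replicate 2. The part of these cell cycle differences in the repair gene values was not tested, and in a bulk sample fewer cells in a phase and less RNA per cell cannot be told apart.

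Other genes of the same pathways gave a few calls. Of 45 further genes of break repair, 4 fell (8.89%), 0 rose and 41 did not pass. Over all genes 2.02% fell and 1.66% rose. The median of the 45 was -0.19, and -0.065 without MK-8776 replicate 1. MND1, a cofactor of strand exchange known mainly from meiosis, changed by -1.64 (adjusted p = 0.0264), and FIGNL1, an ATPase with a part in recombination, by -1.44 (adjusted p = 0.0203, limma). HROB, which brings the helicase MCM8-MCM9 to DNA, and PARP1, which marks strand breaks with poly-ADP-ribose, changed by -1.02 and -0.98 (adjusted p = 0.0441 and 0.0492, limma). This list had 2 calls after quantile normalization, where 620 of 17687 genes passed. It also had 2 with all features tested, where 629 of 21448 features passed. Against a fold of 1.2 it had 1 call, where 288 of 17687 genes passed. The calls were lost when any 1 array was left out, where few genes in all passed. Of 16 further Fanconi and crosslink repair genes 0 passed in the limma fit, with a median of -0.083. At an unadjusted p under 0.05 in that fit 2 were lower and 0 higher, where 10.2% and 8.61% of all genes were. UBE2T, the conjugating enzyme of the core complex, was at -0.76 and its subunit FAAP100 at -0.70. Of 7 further mismatch repair genes 0 passed, with a median of -0.37. Among features above the median level 1 passed, where 957 of 9452 genes did. In the limma fit 3 were lower and 0 higher at an unadjusted p under 0.05, beside the same 10.2% and 8.61% of all genes. MLH3, a nuclease partner, was at -0.80 and the DNA ligase LIG1 at -0.65.

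**Figure D5:**
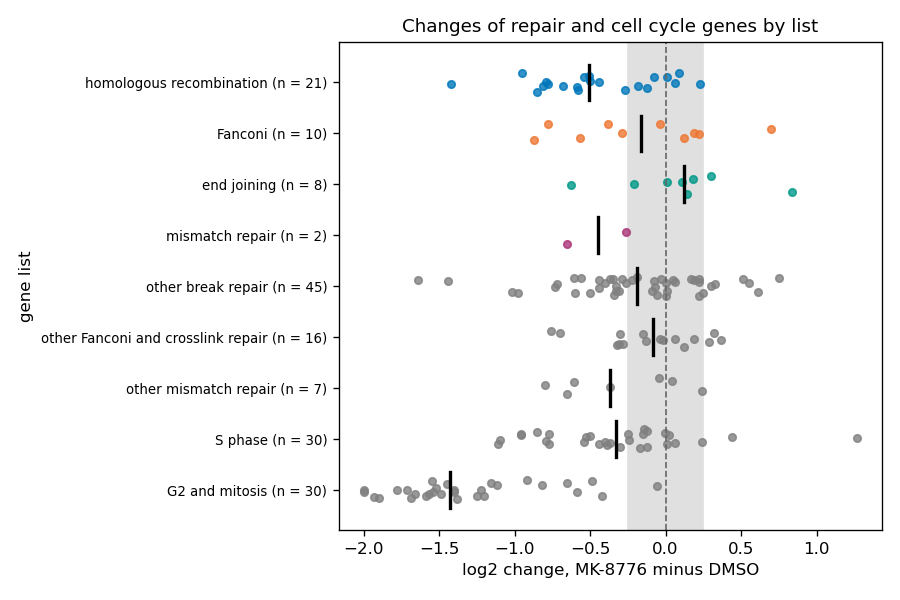
Log2 change (horizontal axis) of each gene by list, with 1 point per gene, a black line at the list's median, a grey band from -0.25 to 0.25 for the middle quartiles of all genes and a dashed line at their median. Homologous recombination genes have a median of -0.51, end joining genes 0.12 and G2 and mitosis genes -1.43.

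The correlation across features was 0.993 within each group and 0.981 to 0.989 between groups. The labelled cell type was checked against its markers. Of 8 measured promyelocyte markers 3 lay above the upper quartile of all values (9.21) on every array, among them MPO, and 1, KIT, lay below the lower quartile on every array, and 2 fell, PRTN3 (-2.01) and CTSG (-2.20). The mean level of these markers was 8.90 and 9.39 in DMSO and 7.88 and 8.48 in MK-8776. Of 7 lymphocyte markers 3 lay below the lower quartile on every array, 1, CD79A, lay above the upper quartile on every array (9.73 and 9.65 in DMSO, 9.47 and 9.75 in MK-8776), and the list mean was 5.30 to 5.67. Of these markers 1 fell, CD3E (-1.38), from a mean of 8.14 to 6.76. Of 6 erythroid and megakaryocyte markers 1 lay below the lower quartile on every array, with a list mean of 5.13 to 5.29, and 1 fell, ITGA2B (-1.55). Over all genes 2.02% fell. The part of these marker differences in the repair gene values was not tested.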

How the data were processed

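Total RNA of 4 NB4-R4 samples was biotin-labelled and hybridised to expression arrays, 2 per group. The deposited values are log2 expression made with RMA on build hg38, per the submitters' processing notes; its version and settings were not stated in the sources used. The log2 scale was read from the values (2.16 to 18.54), and a different RMA scale would alter the sizes of the differences. RMA brings arrays to a similar distribution, so changes are relative to other genes. The deposited arrays were not identical in distribution, as the homologous recombination median was -0.51 before and -0.44 after quantile normalization. The number of arrays limits the precision.

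Of 21448 features, 17709 carried 1 gene symbol, 0 several and 3739 none. All 17709 matched a RefSeq gene table (GRCh38.p14), and the feature with the highest mean was used per gene, leaving 17687 genes. The test was limma 3.58.1 (R 4.3.3), moderated by eBayes and two-sided, with Benjamini-Hochberg adjustment and no filter on dim features. Tested on 20 simulated data sets with 200 of 17687 genes changed, this comparison's fit recovered 10.5% of changes of 1 (log2), 94.3% of 2 and 99.2% of 3. The fit to the data called 652 genes. Recovery depends on how many genes change, and other numbers of changed genes were not simulated, so these shares may differ in the data.

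The members and lists were chosen with earlier results of these data known. All members are named, with every array's value for those past the threshold and for the largest change in each role. Of other lists, up to 4 genes past the threshold with the largest change are named, or the 2 with the largest change where none passed. Promoters are those of members past the threshold, with 2 end joining genes of small change. MPO, KIT and CD79A were named after their values were seen. Alternatives were quantile normalization, median centring, features with either group's mean above the median of all values (5.77), variance trends, a replicate block, all features, mean of features, a fold of 1.2 and leaving out arrays.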

Additional observations from a re-analysis of the deposited data

How the results depend on the processing

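The number of calls depended on the setting more than the changes did. The limma fit called 652 of 17687 genes, against 1185 with a variance trend and 1162 with robust estimation added. It called 620 after quantile normalization, 309 with the replicate block and 288 against a fold of 1.2. Among features above the median level 957 of 9452 genes were called, and with all features tested 629 of 21448 features. Leaving out 1 array gave 0 to 34 calls, with 1815 to 3017 genes at an unadjusted p under 0.05. Of the 41 repair genes 2 were called, against 5 of 39 among features above the median level (BLM, MRE11, RAD54L and FANCE lower, TP53BP1 higher), 3 with either variance trend, 1 with the replicate block, 1 with all features tested and 0 against a fold of 1.2 (8 at an unadjusted p under 0.05). Leaving out 1 array gave 0 to 0 calls (7 to 18 at an unadjusted p under 0.05). Replicates share only a number in the labels, and in these arrays the deviations of same-numbered arrays from their group means had a correlation of 0.139 across genes. With the replicate block MRE11 had an adjusted p of 0.0789.

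The median of the 41 genes ran from -0.40 to -0.29 when single arrays were left out, that of homologous recombination from -0.63 to -0.38, that of mismatch repair from -0.53 to -0.37, that of end joining from 0.08 to 0.23 and that of Fanconi genes from -0.33 to -0.083. Among features above the median level, which left out FANCM and RECQL4, the Fanconi median was -0.29. After quantile normalization the class medians were -0.44, -0.11, 0.12 and -0.42, in the order homologous recombination, Fanconi, end joining and mismatch repair.

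Over 13 alternatives 29 of the 41 repair genes kept their sign and 12 did not, all of them uncalled. After quantile normalization FANCF was at 0.007 and PRKDC at -0.004. The other turns came from leaving out single arrays, where the changes ran from -0.13 to 0.31 for NBN, -0.40 to 0.24 for RAD51D, -0.45 to 0.58 for XRCC3, -0.30 to 0.06 for RAD52, -0.27 to 0.29 for MUS81, -0.055 to 0.49 for FANCC, -0.35 to 0.27 for FANCF, -0.77 to 0.20 for FANCL, -0.36 to 0.59 for FANCM, -0.075 to 0.46 for SLX4, -0.25 to 0.27 for PRKDC and -1.40 to 0.14 for POLQ. The median of the further Fanconi and crosslink repair genes ran from -0.10 to 0.013. The G2 and mitosis list had 12 calls with the replicate block and 12 against a fold of 1.2, and the further break repair genes had 0 with the replicate block. The causes were not tested. At 2 arrays per group and 200 genes changed, the simulated fit recovered 10.5% of changes of 1 (log2) and 94.3% of changes of 2. Other array numbers and other numbers of changed genes were not simulated.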
